A study of Mus musculus with 24 samples.

Results

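The brain's voltage-gated sodium channel genes and their membrane anchor were followed in the mouse hippocampus after neonatal hypoxia-ischemia. The set was chosen by gene name and held 4 alpha subunit genes (Scn1a, Scn2a, Scn3a and Scn8a), 3 beta subunit genes (Scn2b, Scn3b and Scn4b) and Ank3, which encodes ankyrin-G and is an anchor rather than a channel subunit. All 8 names were found among 22314 named genes, in a table of 33084 lines, and all 8 passed the filter on low values. Mice of postnatal day 10 were wild type (WT), or carried a deficiency of NEIL1 or of NEIL2, which are DNA glycosylases that remove oxidized bases. All of them underwent hypoxia-ischemia, and the hippocampus of each side was taken at 3 h or 6 h, with 2 libraries for each of the 12 combinations of genotype, side and time, 24 in all. In the usual form of this model 1 carotid artery is closed before the animal breathes air low in oxygen, so that the ipsilateral hemisphere meets both insults and the contralateral one low oxygen alone. Animals without hypoxia-ischemia were not analysed here, and the strain, the deleted part of each gene and the start of the clock are not given in the sources used here. Values are normalized counts, that is, reads per gene after each library was scaled for depth.

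An alpha subunit forms the whole sodium-conducting pore and its gates, and beta subunits are single-pass membrane proteins that tune its gating and trafficking and act in cell adhesion. In neurons the channels gather at the axon initial segment, where ankyrin-G holds them and where the action potential starts. Scn2a encodes Nav1.2, the main alpha subunit of young axons and of unmyelinated ones. Scn8a encodes Nav1.6, which takes over the axon initial segment and the nodes of Ranvier as neurons mature. Scn3a encodes Nav1.3, which is strong before birth and declines afterwards. Scn1a encodes Nav1.1, which is prominent in inhibitory interneurons that contain parvalbumin.

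The alpha genes are close copies of each other, and a short coding stretch shows what they share. It encodes the ankyrin-binding motif in the loop between the second and the third domain, by which Ank3's product holds the channel. The capitals hold most of the motif. It starts at the codon just before them, and the last codon in capitals lies outside it. The sequences come from the coding transcripts of GENCODE M21 on the GRCm38 build, 5′ to 3′ on the coding strand.
Scn1a: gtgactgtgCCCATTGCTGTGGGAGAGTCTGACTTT
Scn2a: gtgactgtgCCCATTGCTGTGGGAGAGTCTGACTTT
Scn3a: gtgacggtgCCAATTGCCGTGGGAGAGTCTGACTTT
Scn8a: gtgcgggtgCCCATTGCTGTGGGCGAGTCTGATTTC

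In this loop Scn1a and Scn2a were identical over all 36 bases, Scn3a differed from them at 3, and Scn8a differed from them at 6 and from Scn3a at 7. Over whole annotated exons, 4.03% of the 50-base words of Scn1a, 5.62% of those of Scn2a and 6.49% of those of Scn3a also occurred in another sodium channel gene, so a small part of their reads may have been assigned with doubt. The share was 0.0374% for Scn8a and 0 for the beta genes and Ank3. In the same annotation Scn1a, Scn2a and Scn3a lie on chromosome 2, Scn8a on chromosome 15, the 3 beta genes on chromosome 9 and Ank3 on chromosome 10. No exon of a member overlapped an exon of a gene on the opposite strand. Whether reads were counted by strand is not given in the sources used here.

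Libraries held 17771293 to 29252067 reads. Neil2 stood at 1.09 ± 1.18 in NEIL2-KO libraries (SD, n = 8) against 20.7 ± 4.66 in WT, but Neil1 stood at 125.8 ± 23.3 in libraries labelled NEIL1-KO against 97.99 ± 22.2 in WT (both n = 8). Neil1 reads thus did not mark that group, and reads outside a deleted part could remain, so the group is called labelled NEIL1-KO throughout. The samples titled NEIL2-KO carry NEIL1-KO in their genotype field and were grouped by title. The 6 markers of hippocampal subfields were above 0 in every library, as were the 10 neuron markers. Transthyretin (Ttr), the choroid plexus marker, ranged from 74.0 to 35647 over the libraries. The ipsilateral library of labelled NEIL1-KO replicate 2 at 6 h stood apart, with the lowest summed neuron markers (68745 against 99521 to 131399 in the other ipsilateral 6 h libraries) and the highest share of reads on unnamed lines (12.5% against a median of 9.35%). It is kept, and results that turn on it are given without that animal too.

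The 8 transcripts differed widely in level. Per kilobase of annotated exons, the contralateral median at 3 h ran in the order Scn3b (1169 normalized counts per kb), Scn2a (589), Scn8a (346), Scn2b (324), Ank3 (197), Scn3a (172), Scn1a (146) and Scn4b (24.4). The ranges of the 6 libraries overlapped between Scn8a and Scn2b, between Scn2b and Ank3, and between Ank3 and Scn3a, and those neighbours are not separated. Scn3a and Scn1a were just apart, at 160.5 or more against 157.3 or less. The length used for Ank3 is the union of all its annotated exons, 34.8 kb, so its value per kb is a low estimate for any single isoform.

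The first question was how the injured side differed from the opposite side at each time, averaged over the 3 genotypes (6 libraries against 6). Of the 8 genes, 6 were lower on the ipsilateral side at 3 h (limma, Benjamini-Hochberg adjusted p under 0.05 over 18364 genes) and 7 at 6 h, and none was higher. Among all genes tested, 17.4% were called lower and 14.1% higher at 3 h, and 24.7% lower and 24% higher at 6 h. The members' median log2 fold change, ipsilateral over contralateral, was -0.64 at 3 h and -0.95 at 6 h, against 0.01 and 0.02 for all genes. In tissue of mixed cells, a loss of neurons and less RNA per neuron cannot be told apart. The labels do not say whether replicates differ in litter or handling, so every p-value here reflects only how far these particular libraries scatter.

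Scn2a, the Nav1.2 gene, showed the largest difference at both times among the 8. At 3 h its contralateral libraries held 6824, 7501 and 8164 normalized counts (lowest, median and highest of 6) and its ipsilateral libraries 2987, 4165 and 4869.6. At 6 h the contralateral values were 5837, 7153 and 7882 and the ipsilateral values 1418, 2717 and 3765. Every ipsilateral library lay below every contralateral one at both times, and the lowest was the library that stood apart. The level fell to 53.8% of the contralateral level at 3 h (log2 fold change -0.89 ± 0.11, SE; limma adjusted p = 1.46e-05) and to 37.1% at 6 h (-1.43 ± 0.11; adjusted p = 2.49e-08). Leaving out both sides of that animal gave -1.29 ± 0.09 at 6 h.

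Scn8a, the Nav1.6 gene, followed Scn2a closely. Its contralateral libraries held 4682, 5460.1 and 5699 normalized counts at 3 h and its ipsilateral ones 2197, 3153 and 3626. At 6 h the values were 4378, 4952 and 5346 against 1149.8, 2264 and 2718. The sides did not overlap at either time. Scn8a fell to 57.4% at 3 h (-0.80 ± 0.12; limma adjusted p = 7.12e-05) and to 42.6% at 6 h (-1.23 ± 0.12; 2.33e-07).

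Scn3a, the early-life Nav1.3 gene, also separated the sides. Its contralateral values were 1999.7, 2139.9 and 2784 normalized counts at 3 h, against 1124, 1442 and 1569 on the ipsilateral side. At 6 h they were 1816, 2333 and 2681 against 738, 1194 and 1517. Again no library of one side reached the range of the other. Scn3a fell to 62.7% at 3 h (-0.67 ± 0.11; limma adjusted p = 0.000128) and to 49.5% at 6 h (-1.01 ± 0.11; 5.98e-07).

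Scn1a, the Nav1.1 gene of interneurons, moved least of the alpha genes. Its contralateral libraries held 1329.5 to 1753 normalized counts at 3 h and the ipsilateral ones 800.2 to 1499; at 6 h they held 1294 to 1636 and 545 to 1491. The sides overlapped at both times, and the highest ipsilateral library at 6 h, WT replicate 2, lay above 4 of the 6 contralateral ones. At 3 h the difference did not pass the threshold (-0.34 ± 0.13; limma adjusted p = 0.0601), although it did with the animal as a block (0.0345) and without the ipsilateral library of labelled NEIL1-KO replicate 2 (0.0148). At 6 h Scn1a fell to 65.3% (-0.62 ± 0.13; adjusted p = 0.000971). No contrast between genes was fitted.

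**Figure D1:**
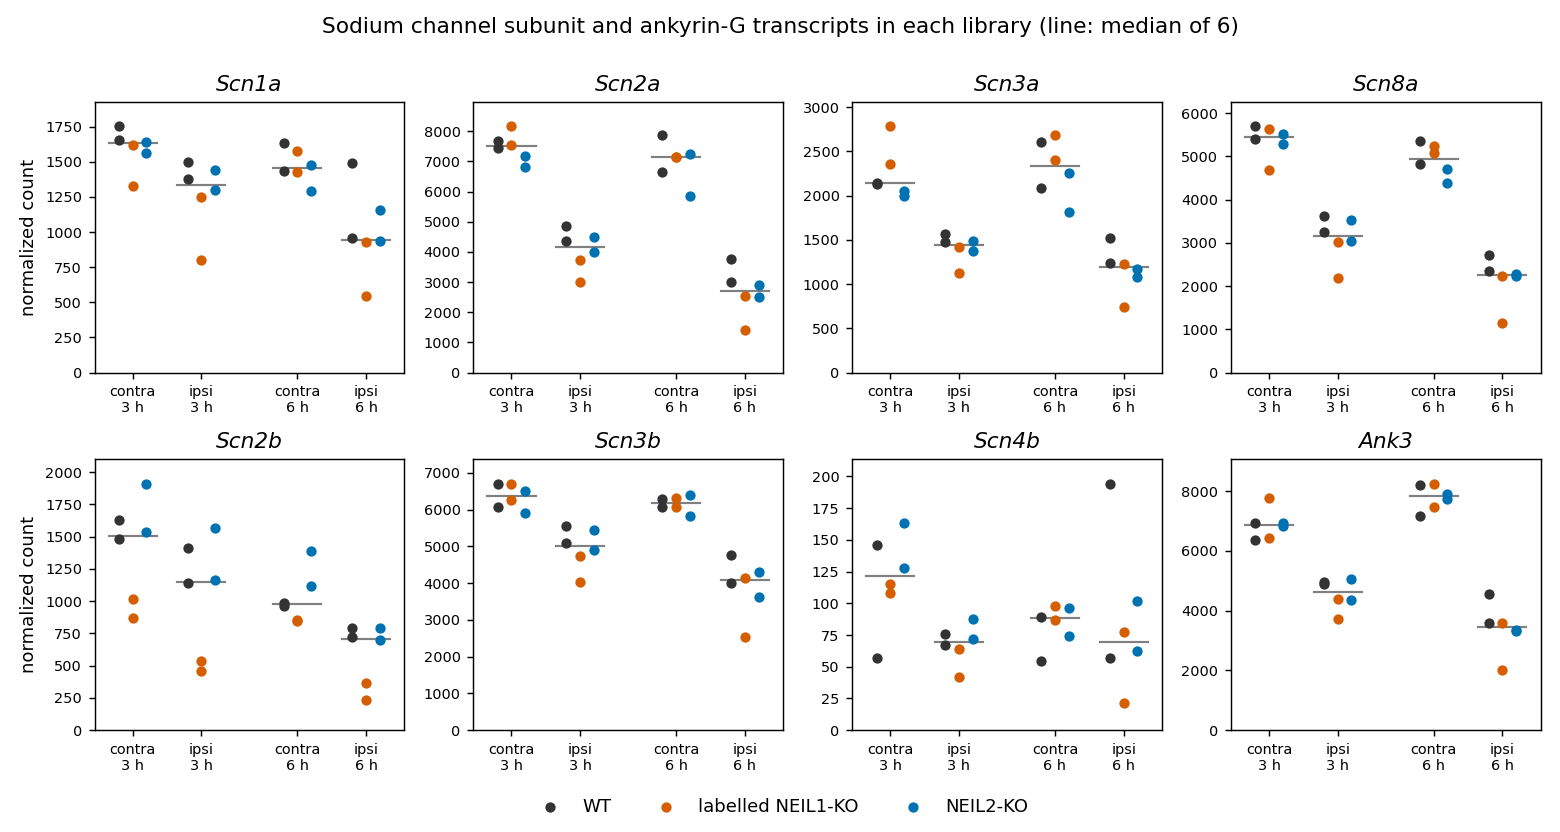
Normalized count of each gene in each of the 24 libraries, by side and time, with colour for genotype and a grey line for the median of 6 libraries; each axis starts at 0. Scn2a, Scn3a, Scn8a, Scn3b and Ank3 show no overlap between the sides at 3 h or 6 h, while Scn4b is spread widely, up to 194 in 1 WT ipsilateral library.

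The makeup of the alpha transcript pool differed between the sides as well, and is described with no test. Summed per kb, the 4 alpha genes stood at 1176 to 1367 normalized counts per kb contralaterally and 536 to 865 ipsilaterally at 3 h, and at 998 to 1314 and 292 to 724 at 6 h. Scn2a made up 45.6% to 49.5% of the contralateral sum and 41.3% to 44.2% of the ipsilateral sum at 3 h. At 6 h its share was 44.9% to 48.1% against 38.1% to 41.2%. The share of Scn1a went the other way, from 9.95% to 12.5% contralaterally to 13.4% to 15.9% ipsilaterally at 3 h, and from 10.6% to 11.6% to 15.1% to 18.5% at 6 h. For both genes the 6 libraries of the sides did not overlap at either time. The shares of Scn8a and Scn3a overlapped between the sides, at 25.3% to 27.8% against 23.8% to 27.9% for Scn8a and 14.6% to 17.2% against 16.4% to 20.2% for Scn3a at 6 h. Shares of one sum move together by construction, so these are not separate results. The markers of GABA interneurons stood beside this with no member of 7 called at 3 h, and with Gad2 lower and Sst higher at 6 h. They summed to 10899 to 13016 contralaterally and 7593 to 14536 ipsilaterally at 6 h, and none of them was at 0. Their part in the Scn1a share was not tested.

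**Figure D2:**
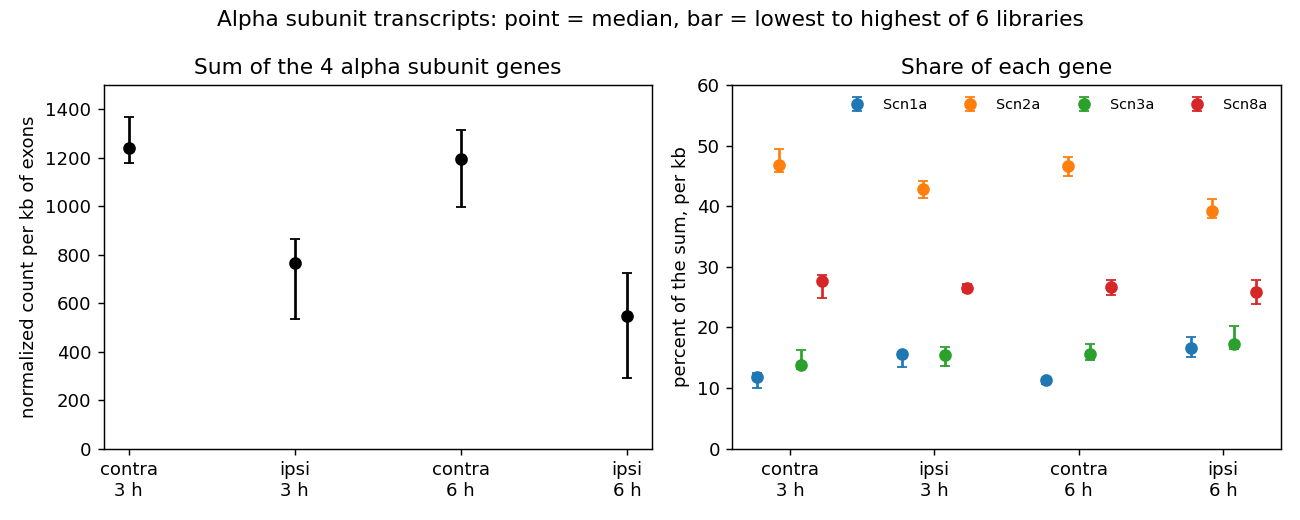
Left, the sum of the 4 alpha subunit genes in normalized counts per kb of exons; right, the percent of that sum from each gene; points are medians and bars run from the lowest to the highest of 6 libraries. The sum at 6 h lies at 292 to 724 on the ipsilateral side against 998 to 1314, and the share of Scn2a is lower there while that of Scn1a is higher.

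Of the beta subunits, Scn2b, whose product is tied to the alpha subunit by a disulfide bond, differed on average by less than Scn2a. Its libraries held 870.5, 1507 and 1909 normalized counts contralaterally and 457, 1150.4 and 1565 ipsilaterally at 3 h. At 6 h they held 848, 974.95 and 1387 against 233, 709 and 792. The sides overlapped at 3 h, when labelled NEIL1-KO contralateral libraries were as low as injured libraries of the other genotypes, and did not at 6 h. Scn2b fell to 69.8% at 3 h (-0.52 ± 0.11; limma adjusted p = 0.00142) and to 54.2% at 6 h (-0.88 ± 0.11; 3.18e-06).

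Scn3b, whose product binds the alpha subunit without a disulfide bond, was the highest of the set per kb and held its level best among those called at both times. Its contralateral libraries held 5907, 6383 and 6704 normalized counts at 3 h and its ipsilateral libraries 4041, 5004 and 5551. At 6 h they held 5832, 6178 and 6387 against 2529, 4079 and 4766. The sides did not overlap. Scn3b fell to 77.7% at 3 h (-0.36 ± 0.10; limma adjusted p = 0.00714) and to 62.1% at 6 h (-0.69 ± 0.10; 1.15e-05).

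Scn4b, whose product can block the open pore and is abundant in the striatum, was the lowest and most scattered of the set. It held 56.7, 121 and 164 normalized counts contralaterally and 41.7, 69.1 and 87.9 ipsilaterally at 3 h, and 54.8, 88.0 and 98.3 against 21.3, 69.8 and 194 at 6 h. The sides overlapped at both times, and neither difference passed the threshold (3 h: -0.77 ± 0.32, limma adjusted p = 0.0737; 6 h: -0.22 ± 0.32, adjusted p = 0.592, 95% interval -0.89 to 0.44). At 3 h it passed with the animal as a block (0.0311) and without WT contralateral replicate 2 (0.0303). The highest value, 194 in the ipsilateral WT replicate 2 at 6 h, came from the library with the highest sum of the 6 striatal markers, 2149.9 against 971 to 1056 in the other WT ipsilateral libraries; its part in the value was not tested.

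Ank3, the anchor at the axon initial segment, fell by as large a factor as Scn8a at 6 h. Its contralateral libraries held 6355, 6880.0 and 7784 normalized counts at 3 h and its ipsilateral libraries 3718, 4638 and 5049. At 6 h the contralateral values were 7155, 7821 and 8244 and the ipsilateral ones 2017, 3469 and 4559.8. No library overlapped across sides. Ank3 stood at 66.1% at 3 h (-0.60 ± 0.11; limma adjusted p = 0.000409) and at 42.6% at 6 h (-1.23 ± 0.11; 7.63e-08).

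Not overlapping between sides was true of 5 members at 3 h (Scn2a, Scn3a, Scn8a, Scn3b and Ank3) and of 6 at 6 h, when Scn2b joined them. Of all genes tested, 11.2% at 3 h and 12.1% at 6 h were lower with no overlap. Matching same-numbered sides, the ipsilateral value was below the contralateral value in 6 of 6 animals at both times for every member other than Scn4b, which was lower in 5 of 6 at 3 h and in 3 of 6 at 6 h. For the members without overlap this follows from the ranges and is no further result. The share of all genes with that pattern was not counted. Per animal, Scn2a stood at 39.6% to 65.4% of the opposite side at 3 h and at 19.8% to 49.5% at 6 h, and Ank3 at 56.2% to 78.1% and 24.5% to 55.6%. Scn4b ran from 24.6% to 217% at 6 h.

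Within each genotype, with 2 libraries a side, every member was lower on average on the ipsilateral side at both times, other than Scn4b in WT at 6 h (0.58; limma adjusted p = 0.49). That exception rests on ipsilateral replicate 2, without which Scn4b stood at -0.29, while it stood at 1.46 without ipsilateral replicate 1. In WT, 1 of the 8 was called lower at 3 h (Scn2a; 1.79% of all genes) and 5 at 6 h (Scn2a, Scn3a, Scn8a, Scn3b and Ank3; 10.3% of all genes). In labelled NEIL1-KO, 6 were lower at 3 h (all but Scn1a and Scn4b; 9.85% of all genes) and 7 at 6 h (all but Scn4b; 21.4%). In NEIL2-KO, 2 were lower at 3 h (Scn2a and Scn8a; 4.95% of all genes) and 6 at 6 h (all but Scn1a and Scn4b; 12.6%). The log2 fold change of Scn2a at 6 h was -1.11 in WT (limma adjusted p = 0.000882), -1.91 in the labelled NEIL1-KO group (3.15e-06) and -1.27 in NEIL2-KO (0.000202). That of Scn8a was -1.005 (0.00267), -1.68 (1.38e-05) and -1.01 (0.00192) in the same order. Scn2b did not pass in WT at either time (-0.29 and -0.36; adjusted p = 0.447 and 0.186), but did in labelled NEIL1-KO (-0.92 and -1.54; 0.00322 and 1.3e-05). Without the animal that stood apart, labelled NEIL1-KO replicate 1 alone gave -1.49 for Scn2a, -1.18 for Scn8a and -1.22 for Scn2b at 6 h. Scn1a was called in labelled NEIL1-KO at 6 h alone (-1.08; 0.00146), and without that genotype's replicate 2 it was not (-0.62; 0.158).

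These counts rest on few libraries. The Scn2a call in WT at 3 h was lost when any of the 4 libraries was left out (adjusted p = 0.121 to 0.371), and with the animal as a block Scn8a joined it (0.049). The Scn2a and Scn8a calls in NEIL2-KO at 3 h were likewise lost without any 1 of their 4 libraries. In WT at 6 h, 3 members were left without contralateral replicate 2, when Scn3a and Scn3b no longer passed. In labelled NEIL1-KO at 3 h, 3 were left without contralateral replicate 2 or without ipsilateral replicate 1, when Scn8a, Scn3b and Ank3 did not pass. In NEIL2-KO at 6 h, Scn2b and Scn3b were lost without contralateral replicate 2 or ipsilateral replicate 1, which left 4. In labelled NEIL1-KO at 6 h, Scn4b was called with the animal as a block (0.0472). Without ipsilateral replicate 1 it stood at -2.06, but the library that stood apart is then alone in its group, and calls of that fit are not read.

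**Figure D3:**
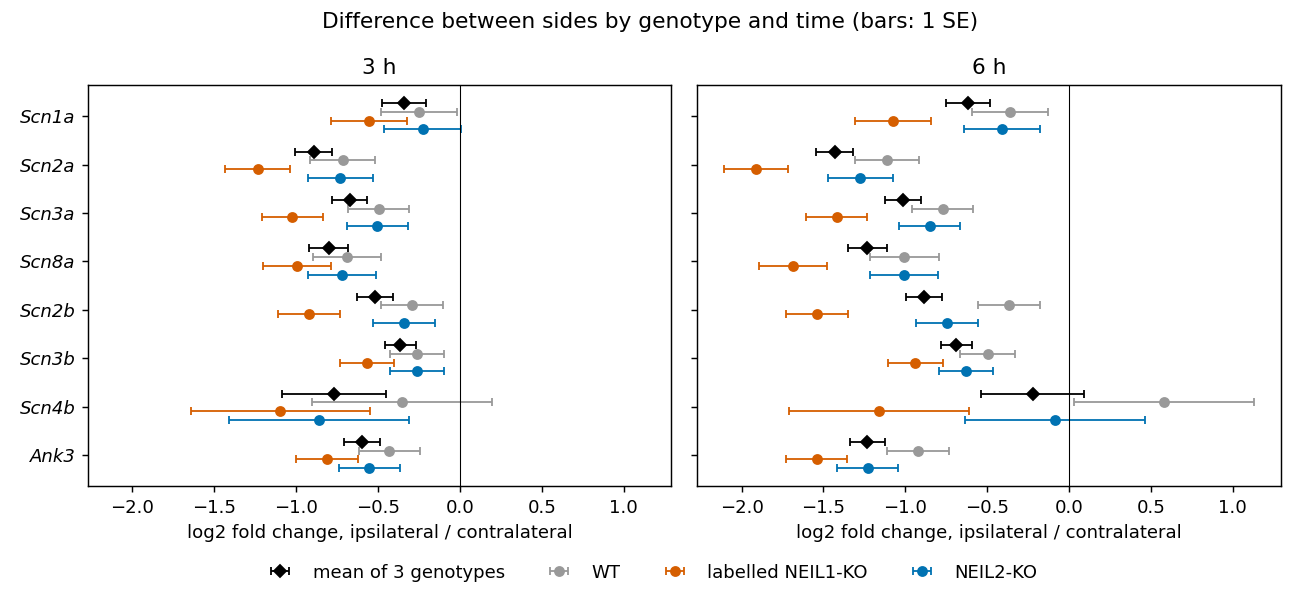
Log2 fold change of the ipsilateral over the contralateral side for each gene at 3 h (left) and 6 h (right), as the mean of 3 genotypes (diamonds) and for each genotype (circles), with bars of 1 SE from the fit across all 24 libraries. Scn2a lies farthest left at both times (-0.89 and -1.43 for the mean), labelled NEIL1-KO lies left of WT for all 8 genes, and Scn4b has the widest bars.

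The second question was how the genes moved between 3 h and 6 h. On the contralateral side none of the 8 was called (limma; 0.218% of all genes were called lower there and 2318 genes had an unadjusted p under 0.05); Scn2b alone of the 8 had an unadjusted p under 0.05 (-0.42, 95% interval -0.65 to -0.20; adjusted p = 0.11), and DESeq2 called it (adjusted p = 0.0172). On the ipsilateral side 5 of the 8 were lower at 6 h than at 3 h, against 7.52% of all genes. The log2 fold change was -0.79 for Scn2b (limma adjusted p = 0.000606), -0.64 for Scn2a (0.00239), -0.55 for Scn8a (0.007), -0.45 for Ank3 (0.0121) and -0.37 for Scn3b (0.0182). Scn1a (-0.38; 0.0687), Scn3a (-0.30; 0.073) and Scn4b (0.08; 0.903) did not pass. The ipsilateral 3 h and 6 h libraries of all 8 overlapped, where 0.844% of all genes were lower with no overlap. Without ipsilateral replicate 1 of NEIL2-KO at 3 h, 3 of the 5 were left, as Scn3b and Ank3 did not pass.

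The test of whether the sides differed more at 6 h than at 3 h called 1 member, Ank3 (-0.63 ± 0.15; limma adjusted p = 0.0396), while 0.463% of all genes were called lower in that test. Its contralateral medians were 6880.0 at 3 h and 7821 at 6 h, a difference that did not pass (0.18; adjusted p = 0.518), and its ipsilateral medians were 4638 and 3469. The Ank3 call was lost when any of 18 of the 24 libraries was left out. The libraries whose omission kept it were ipsilateral replicate 2 of WT at 6 h and of NEIL2-KO at 3 h, both ipsilateral labelled NEIL1-KO libraries at 6 h, and that genotype's ipsilateral replicate 1 and contralateral replicate 2 at 3 h. Of these omissions, that of labelled NEIL1-KO ipsilateral replicate 1 at 6 h leaves the library that stood apart alone in its group, and calls of that fit are not read. The Ank3 call was also lost without the 3 animals with high Xist. Leaving out both sides of labelled NEIL1-KO replicate 2 at 6 h gave -0.47 (0.051). When each library was left out, Ank3 ran from -0.77 to -0.49 and Scn2a from -0.68 to -0.40. In the main fit Scn2a had the next smallest value after Ank3 (-0.54, 95% interval -0.88 to -0.20, limma adjusted p = 0.0925).

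The third question was how each deficient genotype differed from WT on either side, with the times averaged (4 libraries against 4); both genotypes were set against the same WT libraries. On the contralateral side no member was called in labelled NEIL1-KO (limma; 0.0599% of all genes were called lower and 1241 had an unadjusted p under 0.05) or in NEIL2-KO (0.049%; 1582). Scn2b had the one unadjusted p under 0.05 there, in labelled NEIL1-KO (-0.46, 95% interval -0.74 to -0.18; adjusted p = 0.33). For the alpha genes the contralateral differences ran from -0.12 to 0.19 in labelled NEIL1-KO and from -0.14 to -0.10 in NEIL2-KO. No member was called by edgeR or DESeq2 in either, but a fit on the compared groups alone called Scn2b in labelled NEIL1-KO (-0.46; limma adjusted p = 0.011).

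On the ipsilateral side, 5 of the 8 were lower in labelled NEIL1-KO than in WT, against 7.4% of all genes. Scn2b stood out. Its WT ipsilateral libraries held 1410.1 and 1138 normalized counts at 3 h and 723 and 792 at 6 h, and the labelled NEIL1-KO libraries held 457 and 539 at 3 h and 364 and 233 at 6 h. All 4 labelled NEIL1-KO libraries were below all 4 WT libraries, which was so of no other member and of 3.96% of all genes. The log2 fold change of Scn2b was -1.36 ± 0.13 (limma adjusted p = 2.99e-05), and it stayed between -1.52 and -1.20 with an adjusted p under 0.05 when each library was left out. Its contralateral labelled NEIL1-KO libraries held 870.5 and 1014.5 at 3 h and 852 and 848 at 6 h, where WT held 1481 and 1628.5 and then 963 and 987.

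The other calls in labelled NEIL1-KO ipsilateral libraries were less firm. The called differences were -0.64 for Scn2a (limma adjusted p = 0.0127), -0.64 for Scn1a (0.0251), -0.54 for Scn8a (0.0315) and -0.44 for Ank3 (0.0475). Scn3a (-0.40; 0.0645), Scn3b (-0.36; 0.0614) and Scn4b (-0.90; 0.138) did not pass. Without both sides of labelled NEIL1-KO replicate 2 at 6 h, Scn2b was the one member called (-1.20; 0.000239). The other 4 were then at -0.43 for Scn2a (0.0691), -0.44 for Scn1a (0.182), -0.30 for Scn8a (0.185) and -0.23 for Ank3 (0.285). The same single call was left without ipsilateral replicate 1 of labelled NEIL1-KO at 3 h, WT replicate 1 at 3 h or WT replicate 2 at 6 h. Without WT replicate 2 at 3 h, or labelled NEIL1-KO ipsilateral replicate 2 at 6 h, Scn2a was called as well. Without labelled NEIL1-KO ipsilateral replicate 1 at 6 h, the library that stood apart is alone in its group, and calls of that fit are not read. When each library was left out, Scn2a ran from -0.85 to -0.43 and Scn1a from -0.83 to -0.44. Scn8a ran from -0.78 to -0.30 and Ank3 from -0.65 to -0.23. A fit on those 4 groups alone called none of the 8 and 4 of all genes, and Scn2b had an adjusted p of 0.0535 there.

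Markers of cell types were compared in this genotype as well. Of all genes, 7.4% were called lower and 351 of 18364 higher there on the ipsilateral side. On the ipsilateral side 7 of 10 neuron markers were lower in labelled NEIL1-KO than in WT, with a median log2 fold change of -0.48 against -0.59 for the 8 genes and -0.02 for all genes. Their summed level was 68745 to 121262 in the 4 labelled NEIL1-KO libraries and 118048 to 136047 in WT. Of 7 markers of the oligodendrocyte lineage, 3 were lower, among them the myelin genes Mag (-1.75) and Mbp (-1.24). Their sum was 8468 to 15887 against 9862 to 23249 ipsilaterally and 11225 to 12768 against 13175 to 22338 contralaterally, and no gene of the list was at 0. Of 7 GABA interneuron markers 2 were lower, summing to 7593 to 12066 against 11098 to 13537, and of 6 subfield markers 1 was lower (5989 to 10587 against 8152 to 9946). Of 5 endothelial markers 2 were higher. The 5 summed to 5589 and 6325 against 5186 and 5294 at 3 h, and to 6474 and 11103 against 4728 and 6097 at 6 h. Over both times the ranges overlapped, at 5589 to 11103 against 4728 to 6097. No astrocyte, microglial, choroid plexus or striatal marker was called. Choroid plexus markers summed to 187 and 4156 against 280.3 and 522 at 3 h, and to 11793 and 20586 against 370.2 and 468 at 6 h. Astrocyte markers summed to 43799 to 78758 against 35899 to 50682, microglial markers to 2464.5 to 6549.9 against 2739 to 3103, and striatal markers to 1065 to 1277 against 971 to 2149.9. None of these lists had a gene at 0. Whether these levels have a part in the differences of Scn2b or the other members was not tested. High Xist, on both sides, marked replicate 2 of labelled NEIL1-KO at each time (10352 to 18158 normalized counts) and no WT animal (20.2 or less). Leaving out the 3 animals with high Xist, among them NEIL2-KO replicate 2 at 6 h, leaves 1 library in each labelled NEIL1-KO group. Scn2b then stood at -1.26. Whether what Xist marks has a part in the genotype differences was not tested.

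In NEIL2-KO no member was called on the ipsilateral side (limma; 0.0653% of all genes were called lower and 1065 had an unadjusted p under 0.05), and none had an unadjusted p under 0.05 on either side. The ipsilateral differences from WT ran from -0.22 for Scn2a (95% interval -0.52 to 0.07) to 0.03 for Scn2b (-0.25 to 0.31). These intervals of Scn2a and Scn2b leave room for modest changes. Scn4b was less precise, and ran from -0.56 to 0.32 on the ipsilateral side when each library was left out.

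The test of whether the sides differed more in a deficient genotype than in WT called no gene of any kind with limma in either genotype (0% lower in both), but up to 2101 and 50 when 1 library was left out; DESeq2 called 5 genes in the former genotype, labelled NEIL1-KO, and 1 in the latter. In labelled NEIL1-KO all 8 members were lower at an unadjusted p under 0.05, a level that 2652 of all genes passed in either direction, and their limma adjusted p ran from 0.303 to 0.33. The values ran from -0.37 for Scn3b to -1.24 for Scn4b, and Scn2b stood at -0.90 (95% interval -1.30 to -0.50); of the 8, DESeq2 called Scn2b (adjusted p = 0.0344) and edgeR none. Without ipsilateral replicate 1 of labelled NEIL1-KO at 6 h, the library that stood apart is alone in its group, and calls of that fit are not read. When each library was left out, Scn2b ran from -1.06 to -0.74 and Scn2a from -0.87 to -0.45. Without both sides of the animal that stood apart none was called (adjusted p = 0.746 to 0.822), and the values were -0.74 for Scn2b, -0.45 for Scn2a, -0.37 for Scn3a, -0.29 for Scn1a, -0.26 for Ank3, -0.24 for Scn8a, -0.21 for Scn3b and -0.84 for Scn4b. In NEIL2-KO no member had an unadjusted p under 0.05, where 976 of all genes did, and the values ran from -0.59 for Scn4b to -0.02 for Scn8a; neither DESeq2 nor edgeR called a member.

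**Figure D4:**
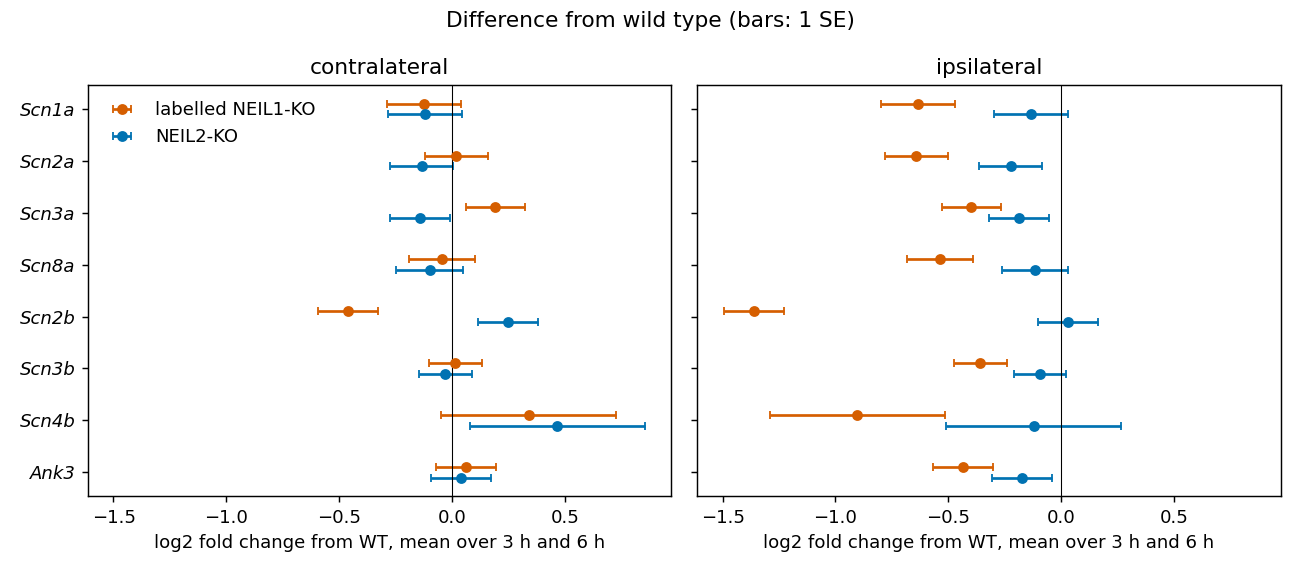
Log2 fold change from WT for each gene on the contralateral (left) and ipsilateral (right) side, averaged over 3 h and 6 h, with bars of 1 SE; both genotypes share the same WT libraries. Scn2b in labelled NEIL1-KO reaches -1.36 on the ipsilateral side, while NEIL2-KO values lie between -0.22 and 0.25 on both sides, other than contralateral Scn4b at 0.47.

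The remaining genes of the pathway were taken from lists chosen with earlier results of these data known, so their counts are descriptive. Beside these counts, 17.4% of all genes were called lower on the ipsilateral side at 3 h and 24.7% at 6 h. Of 8 other sodium channel genes, 6 passed the filter on low values, of which 2 were lower on the ipsilateral side at 3 h and 4 at 6 h. Nalcn, the sodium leak channel, differed by -0.44 at 3 h and -0.81 at 6 h on the log2 scale (limma adjusted p = 0.00336 at 3 h). Scn9a (-0.56) and Scn7a (-0.76) were called lower at 6 h and did not pass at 3 h (-0.36 and -0.23). The sides of both overlapped at 6 h. Scn7a was low, at 33.7 to 68.4 normalized counts contralaterally and 4.11 to 63.9 ipsilaterally, with medians of 41.6 and 33.4. The part of its lowest library in that call was not tested. The list's median was -0.51 at 6 h.

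Of 12 genes of the axon initial segment and nodal scaffold, 9 were lower at 3 h and 11 at 6 h, with a median of -0.57 at 6 h. Kcnq3, a potassium channel subunit that binds ankyrin-G through a motif like that of the sodium channels, stood at -1.37 at 6 h. It ran from 4910.2 to 5378 normalized counts contralaterally and from 934 to 2923 ipsilaterally at 6 h, with no overlap. Ank2, which encodes ankyrin-B, stood at -1.09 and Cntn1, a cell adhesion protein of axons, at -0.88. Trim46, which bundles microtubules in the axon initial segment, was not called at either time (-0.01 and 0.09; limma adjusted p = 0.968 and 0.563), and held 2193 to 2753 ipsilaterally against 2204 to 2774 contralaterally at 3 h.

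Of 9 modulators of sodium channels, 7 were lower and 1 higher at each time. Rest, the repressor of neuronal genes for which Scn2a is a classic target, was the gene that rose, by 0.93 at 3 h and 1.34 at 6 h. Its normalized counts were 189.8 to 199 contralaterally and 318 to 448 ipsilaterally at 3 h, and 134 to 286 and 412 to 583 at 6 h, with no overlap. Of all genes, 14.1% were called higher at 3 h and 24% at 6 h. These shares are of limma calls, and the share of all genes higher with no overlap is not given here. Whether Rest has a part in the lower Scn2a was not tested. Fgf14, an intracellular factor that binds the channel's tail, fell, with log2 fold changes of -0.47 and -1.06, as did Nedd4l, a ubiquitin ligase for sodium channels (-0.68 and -0.93). Pum2, an RNA-binding repressor of sodium channel translation, also fell (-0.62 and -0.76), and so did Bace1, the protease that cleaves beta subunits (-0.50 and -0.60). Fgf11 was not called. In labelled NEIL1-KO against WT on the ipsilateral side, 2 of the 6 other sodium channel genes, 6 of the 12 scaffold genes and 3 of the 9 modulators were lower and none was higher. Of all genes, 7.4% were called lower there.

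**Figure D5:**
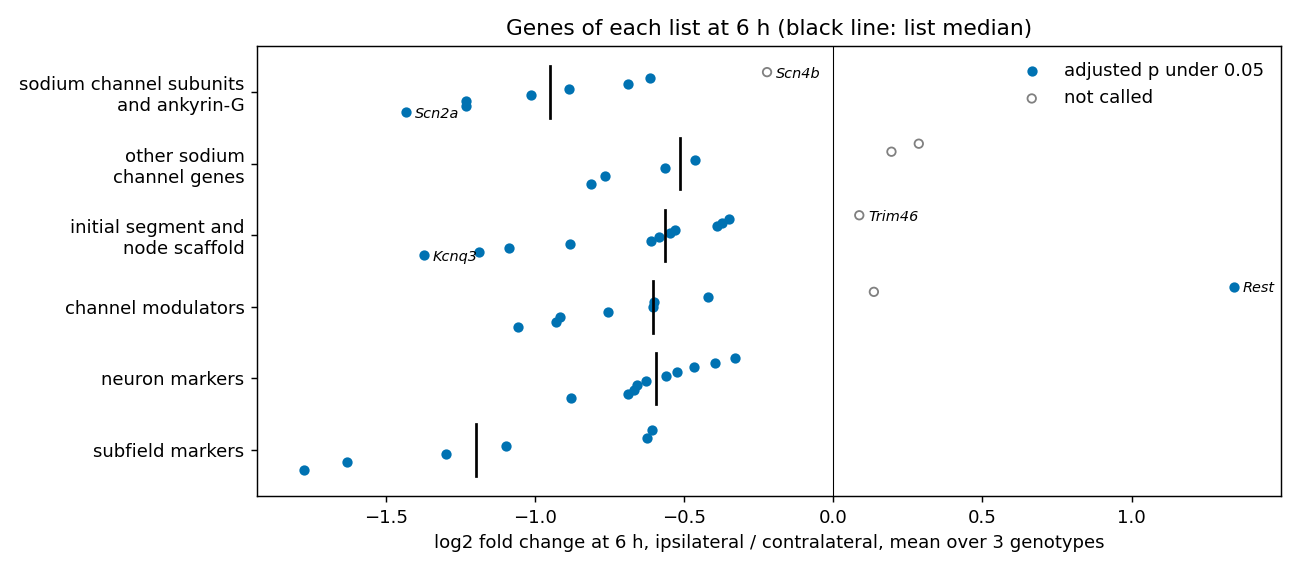
Log2 fold change of the ipsilateral over the contralateral side at 6 h for each gene of the listed groups, with each point a gene. The 8 channel genes span -1.43 to -0.22, the scaffold genes -1.37 to 0.09, the neuron markers lie between -0.88 and -0.33, and Rest stands alone on the right among the modulators at 1.34.

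Markers of the cell types in the tissue were compared between the sides as well. Of all genes, 17.4% were called lower at 3 h, and 24.7% were called lower and 24% higher at 6 h. Counts near these shares are not read as a result about a cell type. At 6 h all 10 neuron markers were lower (median -0.59; 7 at 3 h) and so were all 6 markers of hippocampal subfields (median -1.20; 5 at 3 h). The neuron markers summed to 146411 to 171450 contralaterally and 68745 to 131399 ipsilaterally at 6 h. Of the members called at 6 h, Scn2a, Scn8a, Ank3 and Scn3a (-1.01) lay beyond the lowest of the 10 neuron markers, which was at -0.88, Scn2b lay at that edge (-0.88), and Scn1a and Scn3b lay within the markers' range. The median of the subfield markers, -1.20, lay close to Scn8a and Ank3, and Scn3a lay above it. No test compared the members with either list. At 6 h, 3 of 6 astrocyte markers were higher and 1 lower, 4 of 5 endothelial markers were higher, 1 of 6 microglial markers was higher and 2 lower, 1 of 7 oligodendrocyte markers and 1 of 5 choroid plexus markers were lower, and 3 of 6 striatal markers were higher and 1 lower. The part of any of these in the members' differences was not tested.

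Likeness of pattern was measured as the root mean square difference of centred log2 group means over the 12 groups, among 12887 genes. Scn2a was most like Kcnq3 (0.08), followed by Kcnj3 and Cacna1e. Kalrn and Frrs1l (both 0.07) were among the 3 nearest to Scn8a, and Tbc1d24 and Ank2 (both 0.08) among the 3 nearest to Ank3. Scn3a was nearest to Zyg11b (0.07), Myo5a and Usp34, Scn1a to Prepl (0.07), Atp6v1a and Pnmal1, and Scn3b to Astn1 (0.05), Pja2 and Elmod1. Scn2b and Scn4b had no near match: their closest genes were Lynx1 at 0.22 (then Hipk4 and Extl1) and Lingo3 at 0.19 (then Tmem151b and Nat8l). Among the members themselves Scn2a and Scn8a were closest (0.10), and Scn2b lay 0.41 or more from each of the others. The 12 groups share the injury, so any gene lower on the injured side is alike to that extent.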

How the data were processed

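RNA from mouse hippocampus was sequenced in 24 libraries, 2 for each of 12 groups. The deposited table holds signal values: read counts that the authors divided by size factors. Per the submitters' processing notes, Trim Galore, HISAT2, SAMtools, featureCounts and DESeq2 were used with the GRCm39 (mm39) build, and versions and settings are not given in the sources used here. Every deposited value was a whole number of reads times the worth of 1 read in its library (tolerance 1e-06; 100% of values), so reads could be recovered. Lines with no gene name (10770 of 33084, 32.55%, with 8.41% to 12.5% of reads) were left out of the tests.

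Values were taken as log2(normalized count + 1), and genes at 10 or more in at least 2 libraries were kept (18364, 82.3% of named genes). One limma-trend fit (limma 3.58.1, R 4.3.3) with 12 group means (12 residual degrees of freedom) gave 17 two-sided comparisons, with Benjamini-Hochberg adjustment over all genes and a threshold of 0.05. A fold change on this scale understates the change of low genes such as Scn4b. Alternatives were a pseudocount of 5, no filter, TMM scaling, edgeR 4.0.16 and DESeq2 1.42.0 on recovered reads, a fit of the compared groups only, the animal as a block, leaving out the 3 animals with high Xist, leaving out each library, and, chosen after seeing the data, leaving out labelled NEIL1-KO animal 2 at 6 h. The fit was tested on simulated data.

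The block treats same-numbered sides as 1 animal, since the design text says that both sides were collected from each replicate. Deviations of the sides from their group means correlated at -0.01, 0.00, 0.27, 0.15, 0.05 and 0.03 over genes in the 6 pairs of groups. High Xist appeared on both sides of the same 3 animals (6 libraries). Lengths are unions of exons in GENCODE M21 (GRCm38), a build other than the authors', so no coordinates are given. The 8 members were named in every comparison. For each other list, up to 4 genes with the smallest adjusted p at 6 h were named, with others of textbook role, and so were the 3 genes of most similar pattern. The members and lists were chosen with earlier results of these data known. Precision is limited by 2 libraries per group. Some genes of the lists are not reported here.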

Additional observations from a re-analysis of the deposited data

Results flagged for a closer look

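Of 80 sets of 4 or 6 libraries of the 8 genes, 5 had a highest or lowest library farther from the rest than Dixon's 95% critical value, where chance gives about 5%. On the ipsilateral side at 3 h the lowest Scn1a value was that of labelled NEIL1-KO replicate 1, at 800.2 normalized counts against 1247 to 1499 in the other 5 libraries. On the ipsilateral side at 6 h the lowest Scn8a value was that of labelled NEIL1-KO replicate 2, at 1149.8 against 2232 to 2718. Among WT contralateral libraries Scn3a was highest in replicate 2 at 6 h, at 2607 against 2086 to 2144. Among labelled NEIL1-KO contralateral libraries Scn2b was highest in replicate 2 at 3 h, at 1014.5 against 848 to 870.5. Among WT ipsilateral libraries Scn4b was highest in replicate 2 at 6 h, at 194 against 57.0 to 75.8.

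The difference between the sides of Ank3 was larger at 6 h than at 3 h by -0.63 on the log2 scale in the test of that difference (limma adjusted p = 0.0396). As given above, this call was lost when any of 18 of the 24 libraries was left out. It was also lost without the animals with high Xist, or without both sides of labelled NEIL1-KO animal 2 at 6 h.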

How the results depend on the processing

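Over 136 values (8 genes in 17 comparisons), 2270 of 2424 alternative values kept their direction and their side of the threshold, 94 calls were lost, 60 were gained and none of the called values changed sign; the sign changed for 56 values that were not called. Between the sides, averaged over genotypes, 6 to 8 members were lower at 3 h and 7 at 6 h under every setting other than leaving out single libraries. In WT at 3 h the count of 1 became 2 with the animal as a block or with DESeq2, 0 with no filter, and 4 with the compared groups alone or without the 3 animals with high Xist. In NEIL2-KO at 3 h the count of 2 became 5 and 4 under the last pair of settings. The larger difference at 6 h than at 3 h (1) became 2 with DESeq2 and 0 without labelled NEIL1-KO animal 2 at 6 h or without the animals with high Xist. Contralateral time (0) became 1 with DESeq2 or the compared groups alone, and ipsilateral time (5) became 2 with the compared groups alone and 3 without the animals with high Xist. Labelled NEIL1-KO against WT became 1 (from 0) contralaterally with the compared groups alone, and ipsilaterally (5) became 0 with the same setting and 1 without animal 2; its side difference against WT (0) became 1 with DESeq2. Leaving out each library gave 0 to 0 in WT and in NEIL2-KO at 3 h, 3 to 4 in WT at 6 h, 3 to 7 and 4 to 6 in labelled NEIL1-KO at 3 h and NEIL2-KO at 6 h, 0 to 6 for the larger difference at 6 h, 3 to 7 for ipsilateral time, 1 to 8 for labelled NEIL1-KO against WT ipsilaterally and 0 to 8 for its side difference. For the larger difference, labelled NEIL1-KO against WT ipsilaterally and its side difference, the highest count came without its ipsilateral replicate 1 at 6 h, a fit whose calls are not read. The replicate block changed no call other than those given in the text. The causes were not tested.

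With the compared groups alone, counts of all genes called went from 787 to 1946 (WT, 3 h), 3785 to 2509 (WT, 6 h), 3130 to 1852 and 7156 to 2685 (labelled NEIL1-KO, 3 h and 6 h), 1696 to 2790 (NEIL2-KO, 3 h), 61 to 228 and 2325 to 701 (contralateral and ipsilateral time), 19 to 117 and 1710 to 4 (labelled NEIL1-KO against WT, contralateral and ipsilateral) and 20 to 9 (NEIL2-KO, ipsilateral). DESeq2 gave 1304 in WT at 3 h, 798 for the larger difference at 6 h (348), 268 for contralateral time, 84 and 37 (15) for the contralateral genotype comparisons and 38 for NEIL2-KO ipsilaterally. Without the animals with high Xist the counts were 1585 (WT, 3 h), 2996 (labelled NEIL1-KO, 6 h), 24, 9 and 1167 (the larger difference, contralateral and ipsilateral time), 10, 710 and 4 (labelled NEIL1-KO contralateral and ipsilateral, NEIL2-KO contralateral). Without animal 2 they were 2751, 180, 28 and 229 for labelled NEIL1-KO sides at 6 h, the larger difference, contralateral time and labelled NEIL1-KO ipsilaterally. Leaving out each library gave 155 to 612 (WT, 3 h), 1574 to 3396 (WT, 6 h), 1231 to 3152 and 3991 to 8116 (labelled NEIL1-KO, 3 h and 6 h), 289 to 963 and 2074 to 3978 (NEIL2-KO, 3 h and 6 h, the latter from 4552), 63 to 1405 (the larger difference), 4 to 57 and 878 to 3660 (contralateral and ipsilateral time), 15 to 33 and 95 to 5246 (labelled NEIL1-KO against WT, contralateral and ipsilateral), 3 to 127 and 10 to 364 (NEIL2-KO against WT), and 0 to 2101 and 0 to 50 (side differences, both from 0).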
